A study of Mus musculus with 10 samples.

Results

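The 7 genes Tpbg, Me1, Cyb5r4, 9430037G07Rik, 9330159M07Rik, Rasgrf1 and Ctsh lie in this order within 4.23 Mb of mouse chromosome 9, and the genes Gm7049 and Gm11868 on other chromosomes are processed pseudogenes of Me1 and Cyb5r4. These 9 of the 56748 genes in the deposited table of counts were selected by gene symbol. They had been noticed for their levels in the same KO and control libraries that are described here. The KO to control values of the 9 genes are therefore a description without a test.

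RNA-seq was performed on primary adipocytes differentiated in culture from the stromal vascular fraction of inguinal fat, with 5 control and 5 Ad-Fam20c–KO libraries. Control cells came from Fam20c-flox mice and KO cells from Fam20c-flox/Adipoq-Cre mice, so both groups carried the floxed allele of Fam20c, a secretory pathway kinase. According to the methods, mice were males 6 to 8 weeks old, cells were differentiated for 6 to 8 days, the floxed line had been backcrossed to C57BL/6J for at least 5 generations, and controls were of the same generation. The Cre was driven by the Adiponectin promoter, which is active once cells become adipocytes, so cells that do not differentiate keep the gene. Only KO cells carried the Cre transgene, so the deletion, the transgene and DNA inherited with either cannot be told apart. The labels do not say whether the libraries of a group came from separate animals or cultures, and p-values then measure the spread between these samples.

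Processed pseudogenes are copies of spliced mRNAs that were written back into the genome, so they lack the introns of the parent gene and can share long stretches of its sequence. Me1 encodes cytosolic malic enzyme, which turns malate into pyruvate and supplies NADPH for fatty acid synthesis in adipocytes. Cyb5r4 encodes a reductase with its own cytochrome b5 domain, Ctsh encodes cathepsin H, a lysosomal cysteine protease with aminopeptidase activity, and Tpbg encodes trophoblast glycoprotein, a leucine-rich repeat protein of the cell surface that inhibits Wnt signaling. Rasgrf1 encodes a Ras guanine nucleotide exchange factor best known from neurons, and in mice it is an imprinted gene expressed mainly from the paternal copy. The 2 other chromosome 9 members, 9430037G07Rik and 9330159M07Rik, are long noncoding RNAs.

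Total counts ranged from 18949106 to 26237825 per library, so that 1 count equaled 0.0375 to 0.0524 CPM (counts relative to the size of the library, adjusted by the TMM factors of edgeR). Control 4 and KO 1 stood apart from the other libraries on the first principal component, which held 23.5% of the variance, and values without both are given where they matter. Fam20c, the targeted gene, was at 10.2 ± 1.29 CPM in control and 7.3 ± 0.449 CPM in KO libraries (SD, n = 5), with a log2 fold change of -0.49 (adjusted p = 0.0137, edgeR quasi-likelihood test with Benjamini-Hochberg adjustment). The 10 adipocyte markers summed to 31700 to 32700 CPM in control and 33500 to 35500 CPM in KO libraries. The largest part was Fabp4, with means of 20800 and 22600 CPM. None of the 10 passed an adjusted p of 0.05 in the quasi-likelihood test of edgeR (4 at an unadjusted p under 0.05, 2 by DESeq2). Over all 14270 genes tested, 1697 had an unadjusted p under 0.05 and 484 were called by DESeq2. The 10 endothelial markers summed to 147 to 179 CPM in control and 58.6 to 88.1 CPM in KO libraries, and 9 of them were lower in KO by the quasi-likelihood test of edgeR at an adjusted p limit of 0.05. In these bulk cultures, fewer cells of a type and less RNA per cell cannot be told apart. Macrophage markers summed to 1090 to 1740 CPM in control and 975 to 1670 CPM in KO libraries, and the 4 epithelial markers to at most 0.0967 and 0.263 CPM. Of 6 progenitor markers 2 were lower in KO (Cd34 and Pdgfra), and none of the 4 tested pericyte and smooth muscle markers or of the 4 neural markers passed the limit (1 and 2 at an unadjusted p under 0.05 and 0 and 0 by DESeq2). The remaining pericyte marker, Rgs5, missed the filter on low counts, with 3 to 22 counts per library. It was at 0.7 ± 0.184 CPM in control and 0.279 ± 0.116 CPM in KO libraries (SD, n = 5), and the groups overlapped. The part of these markers in the values below was not tested.

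The likeness of the pseudogenes to their parents sets what the counts on them can mean, and stretches in which the copies differ are shown first. Gm7049 (chr13:62813076-62814787, plus strand) is 1712 bases long and aligned to 1714 of the 1716 bases of the Me1 coding sequence, from the Me1 gene at chr9:86581371-86695953 on the minus strand, with 98.4% identity (GENCODE M21 on GRCm38). The copies differed by 21 substitutions, 4 bases missing from the pseudogene and 2 added ones. In the following lines, 60 bases from coding positions 482 to 541 and 60 bases from positions 663 to 722 of Me1 stand beside the same stretches of Gm7049, and capitals mark the bases that differ.
Me1, 482 to 541: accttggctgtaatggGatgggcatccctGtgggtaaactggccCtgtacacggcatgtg
Gm7049, same stretch: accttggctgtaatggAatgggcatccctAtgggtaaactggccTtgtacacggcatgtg
Me1, 663 to 722: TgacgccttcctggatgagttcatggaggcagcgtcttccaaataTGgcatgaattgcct
Gm7049, same stretch: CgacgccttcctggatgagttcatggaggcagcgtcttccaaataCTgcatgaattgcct

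With the Me1 base first, the position counted from 1 at the first coding base, and the Gm7049 base last, the first stretch holds G498A, G511A and C526T, and the second T663C, T708C and G709T. Between such differences lie long identical runs, the longest of 301 bases. Reads of 50 bases were sequenced from each end of a fragment, and of the 1663 windows of 50 bases in Gm7049, 804 (48.3%) occur letter for letter in a Me1 transcript. The Me1 transcript has 14 exons, and the aligned part spans all 13 of its exon junctions, which Gm7049 carries as uninterrupted sequence. Of the ungapped windows, 35.7% cross the place of a junction.

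Gm11868 (chr4:18844202-18845679, minus strand) is 1478 bases long and aligned to 1482 of the 1584 bases of the Cyb5r4 coding sequence, from the gene at chr9:87022014-87077774 on the plus strand, with 98.0% identity. It differed from Cyb5r4 by 23 substitutions and 7 missing bases, and the first part of the coding sequence is not in it. The lines below show 60 bases from coding positions 205 to 264 and 60 bases from positions 615 to 674 of Cyb5r4 with their counterparts, differing bases again in capitals.
Cyb5r4, 205 to 264: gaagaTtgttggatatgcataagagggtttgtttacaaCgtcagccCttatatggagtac
Gm11868, same stretch: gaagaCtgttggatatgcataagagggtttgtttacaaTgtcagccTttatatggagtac
Cyb5r4, 615 to 674: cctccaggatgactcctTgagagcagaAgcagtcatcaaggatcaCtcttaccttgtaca
Gm11868, same stretch: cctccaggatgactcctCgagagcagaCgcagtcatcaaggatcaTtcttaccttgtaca

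The first of these stretches holds T210C, C243T and C251T, and the second T632C, A642C and C660T, with the Cyb5r4 base first. The longest run without a difference was 150 bases. Of the 1429 windows of 50 bases in Gm11868, 593 (41.5%) occur in a Cyb5r4 transcript, and 44.6% of the ungapped windows cross the place of 1 of the 14 exon junctions spanned. A read that covers a differing base can be told apart, whereas a read from an identical window matches both copies. How the counting treated reads that match both copies is not given in the sources used here.

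**Figure D1:**
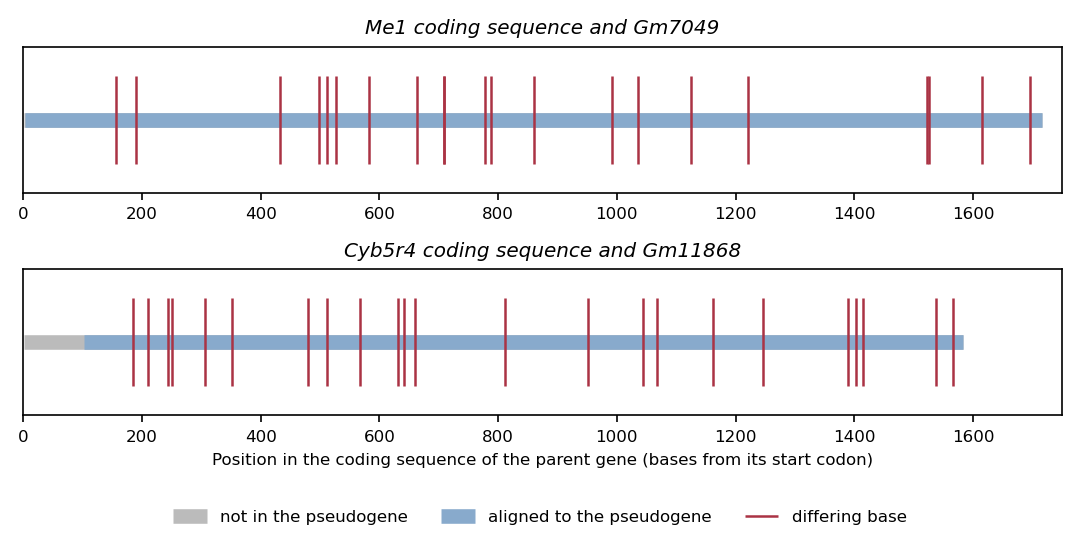
Positions (in bases from the start codon) at which Gm7049 differs from the Me1 coding sequence and Gm11868 from that of Cyb5r4. Red lines mark the 21 and 23 substitutions, blue the aligned part and grey the start of Cyb5r4 that Gm11868 does not hold, and the substitutions lie along the whole aligned length in both pairs.

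Both pseudogenes were higher in KO than in control libraries. With libraries given here and below in the order 1 to 5, Gm7049 was at 2.78, 2.7, 2.4, 3.19 and 2.58 CPM across the control libraries and 14.7, 14.9, 12.5, 15.9 and 13.6 CPM across the KO libraries. The 5 KO values lay far above the 5 control values, and neither group had a library apart from the rest. The means were 2.73 ± 0.295 CPM in control and 14.3 ± 1.3 CPM in KO libraries (SD, n = 5), which gives a log2 fold change of 2.39 (standard error, SE, 0.0969). These rest on 51 to 72 counts in a control and 268 to 347 counts in a KO library. Gm7049 overlaps the lincRNA Gm48795 on the opposite strand, which had at most 1 count in any library.

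Gm11868 was at 0.42, 0.375, 0.235, 0.193 and 0.254 CPM across the control libraries and 3.77, 4.35, 3.62, 3.99 and 3.16 CPM across the KO libraries. The groups did not overlap, and the lowest KO library had 62 counts against 10 in the highest control library. The log2 fold change was 3.65 (SE 0.192), from 0.295 ± 0.0968 to 3.78 ± 0.441 CPM (SD, n = 5). Gm11868 passed the filter on low counts through the KO libraries, where it is high. Its overlapping gene on the opposite strand, Gm11867, had 0 counts in all 10 libraries.

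Me1, the parent of Gm7049, was lower in KO. Its levels were 574, 554, 593, 678 and 624 CPM across the control libraries and 540, 494, 455, 532 and 487 CPM across the KO libraries. The highest KO library (540 CPM) lay just below the lowest control library (554 CPM), and control 4 and KO 1 were the highest of their groups. The means were 605 ± 48.2 CPM and 502 ± 34.7 CPM (SD, n = 5), which gives a log2 fold change of -0.27 (SE 0.0619), and -0.25 without control 4 and KO 1. The log2 fold change lay between -0.30 and -0.22 under 17 alternatives. Under 9 of these 17, among them the replicate block, Me1 no longer passed the limit on the adjusted p. Me1 overlaps A330041J22Rik on the opposite strand by 494 bases, a gene with at most 6 counts in a library.

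Cyb5r4, the parent of Gm11868, had 47, 43.2, 48.8, 48 and 47.6 CPM across the control libraries and 44.3, 42.5, 41.9, 46.7 and 40.8 CPM across the KO libraries. The groups overlapped, since control 2 lay below KO 1 and KO 4. The means were 46.9 ± 2.17 CPM and 43.2 ± 2.33 CPM (SD, n = 5), which gives a log2 fold change of -0.12 (SE 0.0497). It was the member with the smallest fold change.

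The share of counts that fell on the pseudogene did not overlap between the groups in either pair. Of the counts on Me1 and Gm7049 together, 0.482%, 0.485%, 0.403%, 0.469% and 0.411% were on Gm7049 in control libraries 1 to 5 and 2.65%, 2.92%, 2.67%, 2.9% and 2.73% in KO libraries 1 to 5. The mean share was 0.45 ± 0.0397% in control and 2.77 ± 0.13% in KO libraries (SD, n = 5). In control 4 and KO 1, the libraries that stood apart, the shares were close to those of the other libraries of their groups. Of the counts on Cyb5r4 and Gm11868 together, Gm11868 held 0.885%, 0.861%, 0.48%, 0.402% and 0.53% in control libraries 1 to 5 and 7.84%, 9.29%, 7.97%, 7.86% and 7.18% in KO libraries 1 to 5. The mean share was 0.631 ± 0.225% in control and 8.02 ± 0.772% in KO libraries (SD, n = 5), with no overlap.

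A sum over both copies does not depend on which of them a counted fragment is placed on. Fragments left uncounted because they match both copies would be missing from the sum. Me1 plus Gm7049 was at 607 ± 48.4 CPM in control and 516 ± 35.9 CPM in KO libraries (SD, n = 5), which gives a log2 fold change of -0.23 (SE 0.062) against -0.27 for Me1 alone. Gm7049 was higher in KO by 11.6 CPM, while Me1 differed by -103 CPM, so the sum stayed lower in KO. Cyb5r4 plus Gm11868 was at 47.2 ± 2.11 CPM in control and 47 ± 2.58 CPM in KO libraries (SD, n = 5), which gives a log2 fold change of 0.00 (SE 0.0493). Here the differences of the copies were of like size and opposite sign, -3.66 CPM for Cyb5r4 and 3.48 CPM for Gm11868. This sum differed between the groups by less than the spread between libraries.

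**Figure D2:**
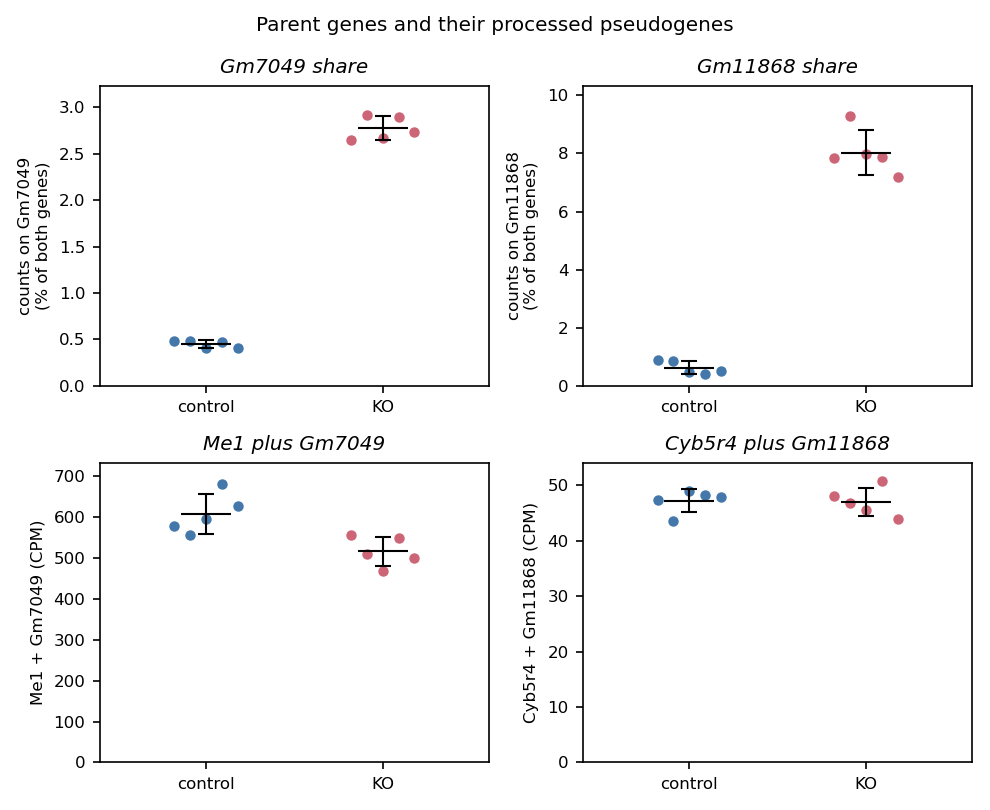
Upper panels show the counts on Gm7049 and Gm11868 as a percent of the counts on pseudogene and parent, lower panels the summed CPM of both copies, for 5 control (blue) and 5 KO (red) libraries with mean and SD. The KO shares (at least 2.65% and 7.18%) lie above each control share, whereas the sum of Cyb5r4 and Gm11868 overlaps between groups at means of 47.2 and 47 CPM.

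Other annotated pseudogenes of genes in the interval gave few counts. A search of pseudogene transcripts against the genes of the interval at 90% identity or more found 8, the described pair included. Gm7329 (chr1:65095227-65095436) is a 210-base pseudogene 99.0% identical to Me1 and had 17 counts over the control and 19 over the KO libraries. Gm6501 (chr19:11121510-11122425), 99.7% identical to Syncrip, which encodes an RNA-binding protein, had 51 and 39 counts. Neither reached the filter for a test, and of the others 1 had 1 count in all (Gm5317) and 3 had 0 (Gm9775, Gm19498 and Gm29603). Gm29603 (334 bases) and Gm9775 (331 bases) lie wholly within 9430037G07Rik and 9330159M07Rik, on the opposite strand. Their 100% identity can therefore be that of the same stretch of DNA and need not mean a separate copy.

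The long noncoding members each have a transcript that is a near-copy of a transcript of the other, which the selection did not use. The 2263-base transcript of 9430037G07Rik (chr9:88595325-88599516, minus strand) and the 2265-base transcript of 9330159M07Rik (chr9:88840236-88858870, minus strand) were 98.0% identical over 2274 aligned positions. Each holds an annotated small nucleolar RNA of 72 bases, and both of these resemble Snord50a and Snord50b of the nearby host gene Snhg5. Small nucleolar RNAs of the box C/D class guide methylation of ribosomal RNA and are cut from introns. The 4 sequences on the minus strand of chromosome 9 are shown to make this likeness visible, with capitals at the positions where they differ.
Gm23017, in 9430037G07Rik, chr9:88598348-88598419: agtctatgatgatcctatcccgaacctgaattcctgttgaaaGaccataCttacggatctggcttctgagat
Gm26135, in 9330159M07Rik, chr9:88857693-88857764: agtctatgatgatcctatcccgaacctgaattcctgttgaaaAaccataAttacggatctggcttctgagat
Snord50a, in Snhg5, chr9:88521529-88521600: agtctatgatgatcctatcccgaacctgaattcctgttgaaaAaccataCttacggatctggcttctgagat
Snord50b, in Snhg5, chr9:88521797-88521868: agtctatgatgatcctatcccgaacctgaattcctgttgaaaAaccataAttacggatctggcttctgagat

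Gm26135 did not differ from Snord50b, and Gm23017 differed from Snord50a by 1 base. Counts of the small nucleolar RNAs themselves were not analysed here. Over all exons, 1229 of the 3813 windows of 50 bases in 9430037G07Rik (32.2%) also occur in 9330159M07Rik, so reads of these windows could have been placed on either. They make up 22.9% of the 5376 windows of 9330159M07Rik, so only part of each gene is shared. Snhg5 shares less, with 2.0% of the windows of 9430037G07Rik and 3.0% of those of 9330159M07Rik.

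Both long noncoding RNAs were lower in KO. 9430037G07Rik was at 1.68, 1.2, 1.5, 1.93 and 1.82 CPM across the control libraries and 0.694, 0.571, 0.655, 0.87 and 1.02 CPM across the KO libraries. The groups did not overlap, though at 13 to 43 counts per library it was the tested chromosome 9 member with the fewest counts. The log2 fold change was -1.09 (SE 0.199), from 1.63 ± 0.288 to 0.762 ± 0.18 CPM (SD, n = 5).

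9330159M07Rik was at 9.91, 9.19, 9.83, 10.5 and 10.5 CPM across the control libraries and 7.09, 6.81, 6.59, 5.5 and 5.75 CPM across the KO libraries. All 5 KO libraries lay below all 5 control libraries. The log2 fold change was -0.65 (SE 0.0861), from 9.99 ± 0.553 to 6.35 ± 0.69 CPM (SD, n = 5), and with the counts of both long noncoding RNAs summed it was -0.71 (SE 0.0789). The host gene Snhg5, in comparison, was at 13.3 ± 1.43 CPM in control and 13.7 ± 1.17 CPM in KO libraries (SD, n = 5), which gives a log2 fold change of 0.05 and no call (adjusted p = 0.918, edgeR quasi-likelihood test with Benjamini-Hochberg adjustment). 9330159M07Rik overlaps the protein-coding gene Trim43c on the opposite strand, which had 0 counts.

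Ctsh (chr9:90054152-90076089, plus strand) was also lower in KO. Its levels were 88.3, 88.5, 95, 85.7 and 98.6 CPM across the control libraries and 59.9, 51.1, 55.1, 61 and 56 CPM across the KO libraries. A wide gap separated the groups, with the highest KO library at 61 and the lowest control library at 85.7 CPM. The means were 91.2 ± 5.37 CPM and 56.6 ± 3.96 CPM (SD, n = 5), which gives a log2 fold change of -0.69 (SE 0.0567). It stayed between -0.73 and -0.65 under 17 alternatives and was -0.73 without control 4 and KO 1.

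Rasgrf1 (chr9:89909908-90026977, plus strand) ends 27.2 kb before Ctsh begins and had the opposite direction. It had 0, 3, 2, 2 and 1 counts in control libraries 1 to 5 and 18, 26, 20, 9 and 12 counts in KO libraries 1 to 5. Control libraries were at or close to 0, and no KO library had fewer than 9 counts, so that the groups did not overlap. In CPM the means were 0.0691 ± 0.0468 in control and 0.786 ± 0.281 in KO libraries (SD, n = 5). The 85 counts over the KO libraries against 8 over the control libraries gave a ratio of 11 after scaling to library size. Its exact 95% binomial interval of 5.35 to 26.4 covers counting error only. The interval leaves out the spread between libraries and the selection of Rasgrf1 on this contrast, so it is no test of a difference. Rasgrf1 did not pass the filter on low counts and had no place in the fit across genes.

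Tpbg (chr9:85842380-85847040, plus strand), at the other end of the interval, was higher in KO. It was at 9.33, 10.1, 12.4, 9.19 and 12.2 CPM across the control libraries and 16.9, 15.1, 14.6, 19.4 and 15.2 CPM across the KO libraries. The lowest KO library (14.6 CPM) lay above the highest control library (12.4 CPM), and KO 4 was the highest of all. The means were 10.6 ± 1.55 CPM and 16.2 ± 1.95 CPM (SD, n = 5), which gives a log2 fold change of 0.61 (SE 0.107). Tpbg overlaps 9330154J02Rik on the opposite strand by 1944 bases, a transcript with 3 to 20 counts in a library and a log2 fold change of 0.67 (adjusted p = 0.465, edgeR quasi-likelihood test with Benjamini-Hochberg adjustment). The strand setting of the counting is not given in the sources used here, so fragments of the overlap could belong to either gene.

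**Figure D3:**
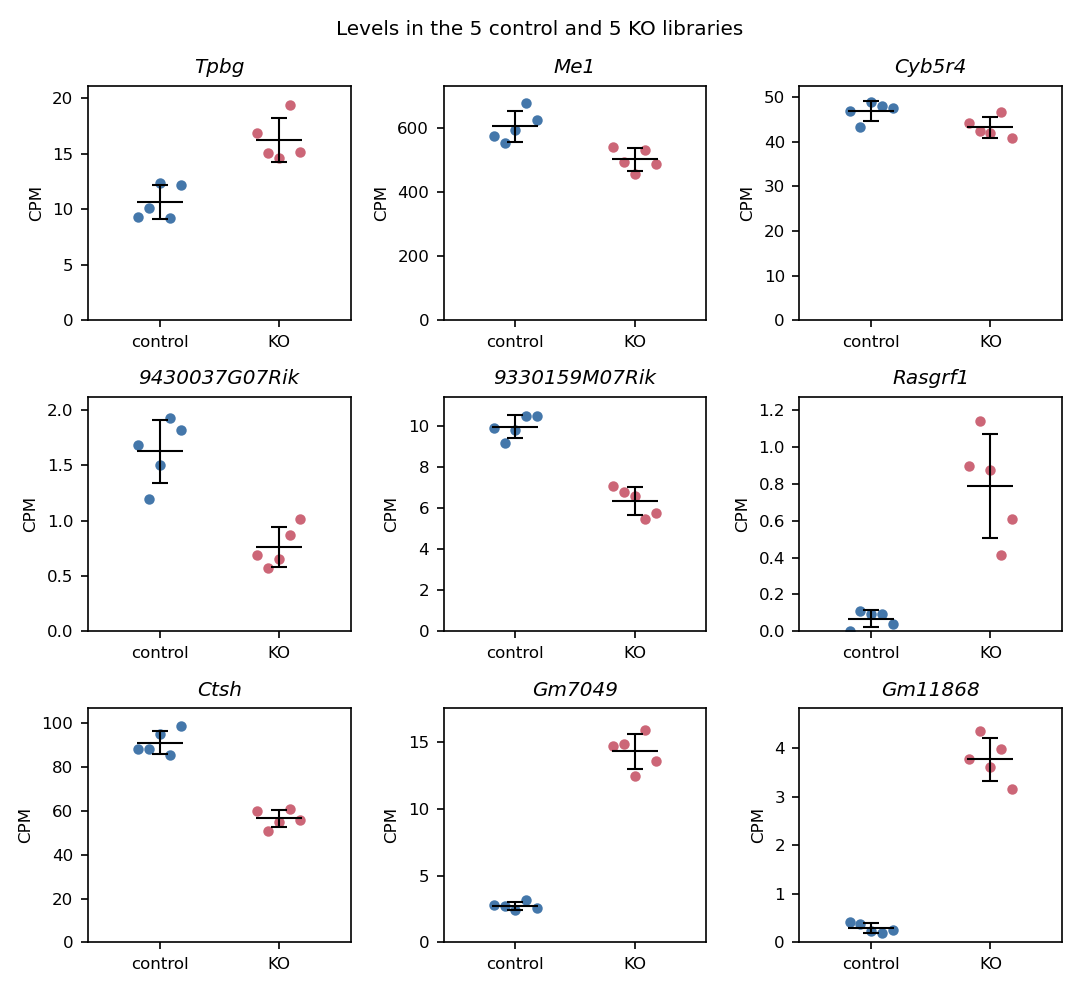
CPM of the 9 genes in 5 control (blue) and 5 KO (red) libraries, with mean and SD over each group and a separate linear axis from 0 for each gene. In 8 of the 9 genes the 2 groups do not overlap, 4 of them lower in KO (Me1, 9430037G07Rik, 9330159M07Rik, Ctsh) and 4 higher (Tpbg, Rasgrf1, Gm7049, Gm11868).

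Of the 9 members 8 were tested and 7 passed an adjusted p of 0.05 in the quasi-likelihood test of edgeR with Benjamini-Hochberg adjustment, 4 lower and 3 higher in KO. Over all 14270 genes tested the share that passed was 2.17%, with 1.86% lower and 0.308% higher. Libraries of the groups did not overlap for 8 members (4 below and 4 above control), against 3.97% of all genes tested, 2.66% with KO below and 1.31% with KO above control. Since the members were selected on this contrast, nothing is read from these counts.

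Per kilobase of exon, which allows levels of different genes to be compared, Me1 led in control with 157 CPM per kb, followed by Ctsh (20.3), Cyb5r4 (6.96), Tpbg (2.78), 9330159M07Rik (1.87), Gm7049 (1.59), 9430037G07Rik (0.432), Gm11868 (0.2) and Rasgrf1 (0.00625). In this order only the neighbors 9330159M07Rik (1.72 to 1.97 CPM per kb over the control libraries) and Gm7049 (1.4 to 1.86) overlapped between libraries. In KO libraries Gm7049, at 8.36 CPM per kb, stood above Cyb5r4 (6.42) and Tpbg (4.24), and Gm11868 (2.55) stood above 9330159M07Rik (1.19). No neighbors in the order overlapped in KO, where Gm7049 ranged from 7.3 to 9.29 and Cyb5r4 from 6.06 to 6.93 CPM per kb. How reads that match both copies were counted is not given. The places of Gm7049 and Gm11868 in these orders therefore hold for the counted fragments only.

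The members did not form an unbroken row of genes, though no tested gene lay between Me1 and Cyb5r4 or between Rasgrf1 and Ctsh. Gaps between neighboring members ran from 27.2 kb (Rasgrf1 to Ctsh) to 1517.6 kb (Cyb5r4 to 9430037G07Rik), and 82 other genes of the table lie between the first and the last of them. Of these 82 genes, 15 passed the filter on low counts and could be tested. The question put to them was whether genes between the members also differed between KO and control. None passed the limit of the quasi-likelihood test of edgeR with Benjamini-Hochberg adjustment. Of the 15, 3 had an unadjusted p under 0.05, as did 1697 of all 14270 genes tested. DESeq2 called 1 (it called 3.39% of all genes tested). For 0 of the 15 were the groups free of overlap, against 3.97% of all genes tested. Their median log2 fold change was 0.025 and the median of its absolute value was 0.129, against -0.001 and 0.072 over all genes tested.

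The 3 neighbors with the lowest p were Zfp949, Nt5e and Tbx18. Zfp949, a zinc finger gene, was at 5.97 ± 0.621 CPM in control and 8.39 ± 1.47 CPM in KO libraries (SD, n = 5), which gives a log2 fold change of 0.49 (SE 0.129, adjusted p = 0.0809, edgeR quasi-likelihood test with Benjamini-Hochberg adjustment). KO 4 lay at 5.82 CPM within the control range, and leaving it out gave a log2 fold change of 0.60 (adjusted p = 0.00587, same test). KO 4 is singled out here for its value, which favors a lower p. In no other fit with 1 library left out did Zfp949 pass the limit. Zfp949 was the gene that DESeq2 called (adjusted p = 0.0159). Zfp949 lies between Snhg5 and 9430037G07Rik, which was lower in KO.

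Nt5e encodes CD73, the ecto-enzyme that makes adenosine from AMP, and was at 17.7 ± 6.94 CPM in control and 27.3 ± 9.38 CPM in KO libraries (SD, n = 5). Its log2 fold change was 0.63 (SE 0.246, adjusted p = 0.311, edgeR quasi-likelihood test with Benjamini-Hochberg adjustment). Control 4 (29.9 CPM) and KO 1 (43.8 CPM), the libraries that stood apart, were the highest of their groups. Without both the log2 fold change was 0.66 (adjusted p = 0.00101, same test), and without control 4 alone it was 0.90 (adjusted p = 0.0248). Tbx18, a T-box transcription factor of mesenchymal cells, had a log2 fold change of -0.22 (adjusted p = 0.408, same test).

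Of the other tested genes next to the members, 9330154J02Rik had the log2 fold change of 0.67 given above with Tpbg, which it overlaps. Ube2cbp, after Tpbg, had a log2 fold change of -0.03, and Rwdd2a, next to Me1, one of 0.27. Cep162, after Cyb5r4, was at -0.18 and Mthfsl, between the long noncoding RNAs, at 0.09. Mthfs, which encodes an enzyme of folate metabolism, was at -0.08, and Tmed3, the tested gene before Rasgrf1 and Ctsh, at -0.13 (log2 fold changes, none past the limit). Morf4l1, a chromatin gene that begins just after Ctsh, was at 208 ± 7.24 CPM in control and 206 ± 7.65 CPM in KO libraries (SD, n = 5), which gives a log2 fold change of -0.01 (adjusted p = 0.963, edgeR quasi-likelihood test with Benjamini-Hochberg adjustment).

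In the 5 Mb before the interval 13 genes were tested and 1 passed, and in the 5 Mb after it 11 were tested and 1 passed. Hmgn3, a nucleosome-binding protein gene, fell from 21.8 ± 2.6 to 17 ± 0.52 CPM (SD, n = 5, log2 fold change -0.36, adjusted p = 0.0256, edgeR quasi-likelihood test with Benjamini-Hochberg adjustment). Plod2, which encodes a lysyl hydroxylase of collagen, fell from 142 ± 12.3 to 102 ± 9.11 CPM (SD, n = 5, log2 fold change -0.48, adjusted p = 0.00292, same test). The groups did not overlap for Hmgn3, for Plod2 and for 4933431K14Rik, a transcript before Tpbg that was named after its values were seen (0.934 ± 0.184 CPM in control and 1.46 ± 0.126 CPM in KO, SD, n = 5, log2 fold change 0.65, adjusted p = 0.0708, same test). On the rest of chromosome 9, 16 of 732 genes tested passed, or 2.19%, close to the 2.17% of all genes.

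**Figure D4:**
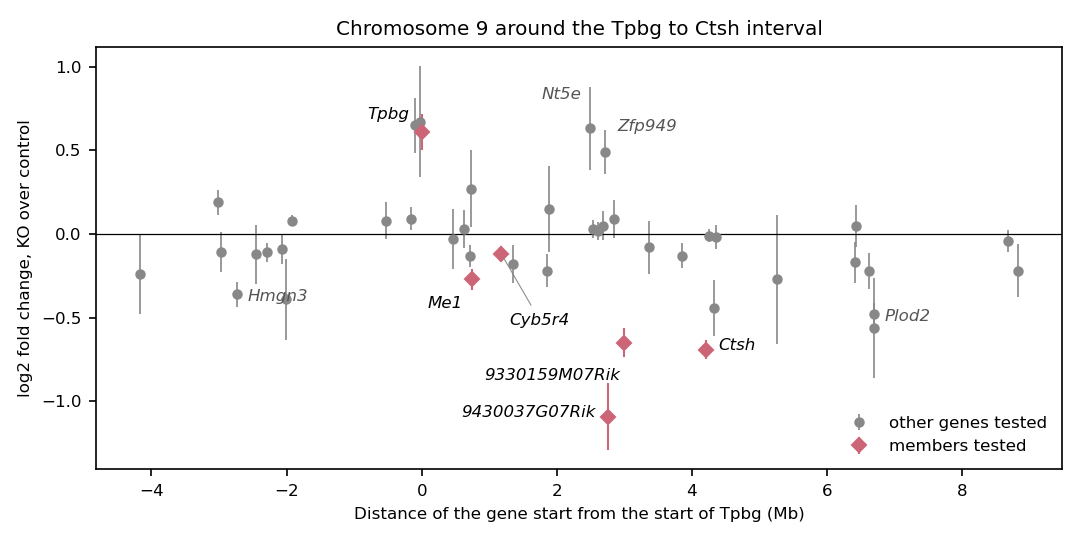
Log2 fold change of KO over control (with standard error) of each tested gene on chromosome 9 from 5 Mb before to 5 Mb after the interval, by the distance in Mb of its start from that of Tpbg. The 6 tested members (red diamonds) run from -1.09 to 0.61, and the median of the other genes (grey) inside the interval was 0.025.

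The promoters of the 6 members that could be matched differed in their content of CG, the dinucleotide at which DNA is methylated. In the 250 bases upstream of the start, from RefSeq on GRCm38.p6, Rasgrf1 had 21 CG dinucleotides, Me1 23 at its first and 2 at its second listed start, Cyb5r4 14, 9430037G07Rik 8 and 9330159M07Rik 29 at the first listed start, against a median of 6 over 32851 promoters. Tpbg had 5 at its first and 14 at its second listed start.

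Genes of the members' pathways were looked up in fixed lists, whose counts of called genes stand beside 1.86% lower and 0.308% higher over all genes tested. Of 23 tested genes for NADPH supply and the malate-pyruvate cycle, Me1 not included, 2 were higher and 0 lower in KO, with a median log2 fold change of 0.06 (-0.001 over all genes tested). Mthfd2, a mitochondrial folate enzyme, was at 95.2 ± 2.47 CPM in control and 122 ± 11.9 CPM in KO libraries (SD, n = 5), which gives a log2 fold change of 0.36 (adjusted p = 0.00722, edgeR quasi-likelihood test with Benjamini-Hochberg adjustment). Idh2, mitochondrial NADP-dependent isocitrate dehydrogenase, rose from 139 ± 9.57 to 166 ± 6.93 CPM (SD, n = 5), which gives a log2 fold change of 0.25 (adjusted p = 0.0201, same test). Both act in mitochondria, whereas Me1 acts in the cytosol. Me2 and Me3, the other malic enzymes, were at 21.9 and 0.457 CPM in control and 22.8 and 0.423 CPM in KO libraries.

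Of 9 tested genes of fatty acid synthesis, desaturation and their regulation, none passed edgeR's limit (2 at an unadjusted p under 0.05, 1 by DESeq2). Their median log2 fold change was 0.00. The most abundant were the desaturase genes Scd1 (47900 ± 6830 CPM in control and 52700 ± 4800 CPM in KO, SD, n = 5) and Scd2 (3560 ± 418 and 3800 ± 250 CPM). None of 13 tested genes of cytochrome b5, reductases and fatty acid desaturases passed (0 at an unadjusted p under 0.05, 0 by DESeq2). Their median was -0.03, and the same Scd1 and Scd2 were the most abundant there. Among 12 tested genes of cathepsins, cystatins and the protease Lgmn none passed (0 and 0 by the same counts) and the median was 0.03. The most abundant relatives of Ctsh were Ctsb, at 2070 ± 88.8 CPM in control and 2040 ± 167 CPM in KO libraries, and Ctsl, at 549 ± 34 and 565 ± 28.9 CPM (SD, n = 5).

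Of 17 tested genes of Ras-family proteins and their regulators, 1 was lower and 0 higher, with a median of 0.01. This gene, Rasgrp3, a diacylglycerol-responsive exchange factor, fell from 3.41 ± 0.241 to 1.45 ± 0.425 CPM (SD, n = 5), which gives a log2 fold change of -1.24 (adjusted p = 0.00154, edgeR quasi-likelihood test with Benjamini-Hochberg adjustment). Rasgrf2, the closest relative of Rasgrf1, was at 3.65 ± 1.12 CPM in control and 3.23 ± 0.933 CPM in KO libraries (SD, n = 5). A further list held the Tpbg relative Tpbgl, Wnt inhibitors, the Wnt co-receptor genes Lrp5 and Lrp6, and Cxcl12 with its receptor gene Cxcr4. None of its 9 tested genes passed (1 at an unadjusted p under 0.05, 0 by DESeq2), with a median of -0.05. The most abundant were Lrp6 (135 ± 17.6 CPM in control and 133 ± 14.6 CPM in KO) and Cxcl12 (135 ± 32.4 and 111 ± 21 CPM). Of 14 tested imprinted genes expressed from the paternal copy, 2 were lower and 0 higher (1.86% and 0.308% over all genes tested), with a median of -0.17 (-0.001 over all genes tested). Mest fell from 18.6 ± 2.06 to 13 ± 1.45 CPM (log2 fold change -0.52, adjusted p = 0.0103, same edgeR test) and Nnat from 4.5 ± 0.673 to 2.69 ± 0.438 CPM (log2 fold change -0.74, adjusted p = 0.0145).

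Once the group means were removed, the genes whose log2 CPM across the 10 libraries was most like Me1, among 14247 compared, were Nudt4 (Pearson r = 0.98, Spearman rho = 0.98), Rpia (0.97 and 0.98) and B4galt6 (0.97 and 0.96). Me1 was highest within its groups in control 4 and KO 1, and without these 2 libraries r was 0.96, 0.96 and 0.95. For Ctsh, Prmt1 and Lrrc9 were among the most alike (r = 0.95 and rho = 0.85 for each), with r at 0.93 and 0.92 without control 5 and KO 4. All of the genes compared share the same libraries, and as the highest of many values they are a description only.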

How the data were processed

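Total RNA was turned into libraries by the SMARTer v4 and Nextera XT chemistry. The authors aligned paired-end reads by STAR (GRCm38.p6), assigned fragments to genes by featureCounts and deposited raw counts of 56748 genes, without normalization or pooling. 0 columns belonged to other samples. Gene positions are those of GENCODE M21, in which 52073 of the identifiers were found without their version numbers. The deposited identifiers mostly carry other version numbers, so positions and exon lengths may differ from those used for counting.

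In R 4.3.3, edgeR 4.0.16 left out genes under a minimum count of 10 (filterByExpr), scaled libraries by TMM factors and compared 5 KO with 5 control libraries by the quasi-likelihood test with Benjamini-Hochberg adjustment over 14270 genes (limit 0.05). Members and gene lists were chosen with earlier results of these data known. Named besides the members were Fam20c, the called or else the 3 lowest-p genes of the interval, the tested genes next to members, pseudogenes with 10 or more counts, the called or else the 2 most abundant genes of each list, and the 3 genes most like Me1 and Ctsh, of which 1 is not reported here. Alternatives were DESeq2 1.42.0, limma 3.58.1 (voom), other size factors and filters, a replicate block, and libraries left out. Sequences were taken from GENCODE M21 transcripts and compared by BLAST 2.17.0 and local alignment. The scripts were tested on simulated counts. Replicate numbers did not pair the libraries (correlations of deviations from -0.25 to 0.26 over 5 pairs).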

Additional observations from a re-analysis of the deposited data

Results flagged for a closer look

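Single libraries stood far from the other 4 of their group in 4 of 54 groups of 5 libraries examined (members, tested neighbors in the interval, Fam20c and both pseudogene shares), where chance gives about 2.7. Nt5e was at 29.9 CPM in control 4, against 12.9 to 16 CPM in the other control libraries, and at 43.8 CPM in KO 1, against 21.6 to 25.7 CPM in the other KO libraries. Zfp949 was at 5.82 CPM in KO 4, against 8.69 to 9.52 CPM in the others. Mthfsl was at 4.23 CPM in control 3, against 5.09 to 5.24 CPM. None of the 9 members was among them.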

How the results depend on the processing

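The numbers of genes called depended on the setting. Genes higher in KO, 44 in the reported fit, numbered 125 with DESeq2, 111 with limma voom, 145 without control 4 and KO 1 (chosen after seeing the data) and 19 to 119 with 1 library left out. Genes lower in KO, 265 in the reported fit, numbered 164 to 323 with 1 library left out. Neighbors of the interval called went from 0 to 1 with DESeq2, with no filter on low counts (Zfp949 in both) and without control 4 and KO 1 (Nt5e), and ran from 0 to 1 with 1 library left out. Genes called in the fixed lists went from 5 to 8 with DESeq2 and ran from 4 to 8 with 1 library left out. Cyb5r4 alone had a log2 fold change of -0.12 against 0.00 for its sum with Gm11868. KO minus control was -3.66 CPM for Cyb5r4 and 3.48 CPM for Gm11868. The numbers 1 to 5 did not pair the libraries, and the replicate block moved the genes higher in KO from 44 to 21, with 1 control library correlating best with its own number.

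No direction reversed among the 8 members that were tested, and Rasgrf1, which was not, was left out of this comparison. The members were selected on this contrast in these libraries. Refits of the same counts could therefore hardly reverse a direction, and nothing is read from this. Me1, called in the reported fit, did not pass the limit on the adjusted p under 9 of 17 alternatives. Tpbg did not pass it under 1 of 17, the replicate block. With no filter on low counts, Rasgrf1 had a log2 fold change of 3.36 (SE 0.459). Log2 fold changes ran from 0.54 to 0.67 for Tpbg, -0.30 to -0.22 for Me1, -0.15 to -0.10 for Cyb5r4, -1.21 to -0.99 for 9430037G07Rik, -0.69 to -0.60 for 9330159M07Rik, 2.35 to 2.45 for Gm7049 and 3.50 to 3.78 for Gm11868. 9430037G07Rik and Gm11868 gave no value under a filter on a mean of 50 counts. The cause of the other changes was not tested. Counting error is largest for Rasgrf1, Gm11868 and 9430037G07Rik, which have the fewest counts.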
